A study of Mus musculus with 4 samples.

Results

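The miRNAs described here come from a group of hairpins on the mouse X chromosome, Mir500, Mir501, Mir362, Mir188 and Mir532. They were measured in purified Sertoli cells of sham-treated mice, mice with androgen action blocked, and mice given the same block with testosterone added. Members were taken by name: every mature miRNA of these hairpins that the study's array carries under the names mmu-miR-500, mmu-miR-501-3p, mmu-miR-501-5p, mmu-miR-362-3p, mmu-miR-362-5p, mmu-miR-188-5p, mmu-miR-532-3p and mmu-miR-532-5p, without regard to their values. This gave 8 of the 567 mouse miRNAs on the array. The other arm of the miR-188 hairpin, mmu-miR-188-3p, was read as well because it belongs to the same hairpin. On the arrays from androgen-blocked mice, mmu-miR-362-3p, mmu-miR-500 and mmu-miR-532-5p gave higher signals than on the single Sham array, in every way of processing that gave a value. Sham did not detect mmu-miR-532-5p. These 3 were called higher in the limma test used here, as were 25.5% of the 298 miRNAs tested, while 28.5% were called lower. In 4 alternatives no member was called higher, and those called between 0 and 39 of all miRNAs higher, against 76 in the main fit. mmu-miR-188-5p did not pass after normalization, and no member was detected on the array with testosterone given back, which was too noisy to show levels of this size.

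A miRNA is cut from a hairpin precursor, first in the nucleus by Drosha and then in the cytoplasm by Dicer, and either the 5′ arm (5p) or the 3′ arm (3p) can be kept by an Argonaute protein. The bases near the 5′ end, called the seed, pair with target mRNAs. Hairpins that lie close together on the same strand are often cut from a shared primary transcript, so their mature products can rise and fall together, although each is processed and degraded on its own. Sertoli cells are the somatic cells that line the seminiferous tubule, nurse the germ cells and carry the androgen receptor.

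The mice were B6129 males 5 to 7 weeks old, and the sample labels give Sertoli cells pooled from 5 to 7 mice as the source of RNA. Sham mice carried a Silastic tube under the skin and were injected with saline. Flut+Acy mice received flutamide, an androgen receptor antagonist, from such a tube and acyline, an antagonist of gonadotropin-releasing hormone, at 20 mg/kg by injection. Flut+Acy+T mice received the same flutamide and acyline with testosterone added. Every group thus had an implant and an injection, and the question asked is which miRNAs respond to the loss and the return of androgen. Sham and Flut+Acy+T had 1 array each and Flut+Acy had 2, all on the same slide and from the same scan date. The sample labels call the groups control, flutamide and testosterone, and acyline is known from the study's methods. Nothing states that the Flut+Acy arrays came from separate pools of mice. The study's array figure legend describes Sertoli cells as pooled for each group, and its methods scale each miRNA over as many samples as there were groups. The p-values thus measure only the spread between these arrays, which may be technical. Of 189 miRNAs that Sham and the Flut+Acy pair all detected, only 5 (2.65%) differed between the Flut+Acy arrays by more than 2 scanner errors once the overall difference in brightness was removed.

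The arrays were unequal (the Flut+Acy+T array is also called the testosterone array here), and this touches every result below. Summed over the mouse miRNAs with a total signal above 0, the signal reached 57939.5 units on Sham, 139602 and 161460 units for the Flut+Acy pair and 201919 units on the testosterone array, where a unit is the scanner's fluorescence intensity after background subtraction. Total signals below 0, left out of these sums, made up 42.3% of miRNAs on Sham, 35.1% and 27.9% for the Flut+Acy pair and 49.7% on the testosterone array. Of the 567 miRNAs, 34.0% were detected on Sham, 48.5% and 47.6% on the Flut+Acy pair and 18.0% on the testosterone array. The last stood apart: its negative control spots had a standard deviation of 1326 units, against 2.97, 2.72 and 7.45 on the others, and it had 535 nonuniform spots against 0, 2 and 4. The dimmest miRNA that it detected had a total signal of 238 units. In total RNA of a cell preparation, fewer cells of a type and less RNA per cell cannot be told apart.

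The hairpins lie together on the minus strand of chromosome X. In the scanner files the members' probes match chrX:6814821-6825598 of mm9, a stretch of 10.8 kb that begins at mmu-miR-500 and ends at mmu-miR-532-5p. In the RefSeq annotation of GRCm38.p6 all 5 hairpins are inside the span of Clcn5 (chrX:7153810-7319358), a gene for a chloride transport protein of endosomes that is transcribed from the same strand. Whether each lies in an intron or an exon could not be read from the gene table used here. The array's name mmu-miR-500 does not say which arm it is. The distance from its probe to the other members in mm9 equals the distance from the RefSeq 3p arm in GRCm38.p6 for all 7 other arms that have both positions, and for 0 of them if the 5p arm is taken, so it was read as mmu-miR-500-3p.

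The mature sequences show how alike the members are. RefSeq (GRCm38.p6) gave a sequence for 7 of the 8 members; mmu-miR-532-5p is named only. They are printed 5′ to 3′ with the seed, bases 2 to 8, in capitals. The first pair shares the seed AUGCACC, which no other mature mouse miRNA of the table has.
mmu-miR-500-3p: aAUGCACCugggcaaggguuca
mmu-miR-501-3p: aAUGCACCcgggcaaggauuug
The next group opens with the same 7 bases, AAUCCUU, a start found in 3 of the 1679 mature mouse miRNAs of the table (0.179%), all from this cluster. mmu-miR-500-5p, which was not measured, shares the whole seed of mmu-miR-362-5p.
mmu-miR-362-5p: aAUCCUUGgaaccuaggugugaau
mmu-miR-501-5p: aAUCCUUUgucccugggugaaa
mmu-miR-500-5p: aAUCCUUGcuaucugggugcuuagu
The remaining members each have a seed of their own within the cluster. That of mmu-miR-362-3p is also the seed of mmu-miR-329-3p, and that of mmu-miR-188-5p is also the seed of mmu-miR-7061-3p.
mmu-miR-362-3p: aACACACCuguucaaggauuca
mmu-miR-188-5p: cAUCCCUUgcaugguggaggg
mmu-miR-532-3p: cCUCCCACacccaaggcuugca

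More of the cluster was detected on the Flut+Acy arrays, which were brighter overall and detected more of all miRNAs. On Sham, 3 of the 8 members were detected, on each Flut+Acy array 6 were, and on the testosterone array 0 were. The members that both Flut+Acy arrays detected and Sham did not were mmu-miR-362-5p, mmu-miR-532-3p and mmu-miR-532-5p, or 3 of 8, where 13.1% of all 567 miRNAs behaved in this way. For mmu-miR-532-3p the detection flag rested on signals no larger than their error, as described with its values. Neither arm of miR-501 was detected on any array, and nor was mmu-miR-188-3p.

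**Figure D1:**
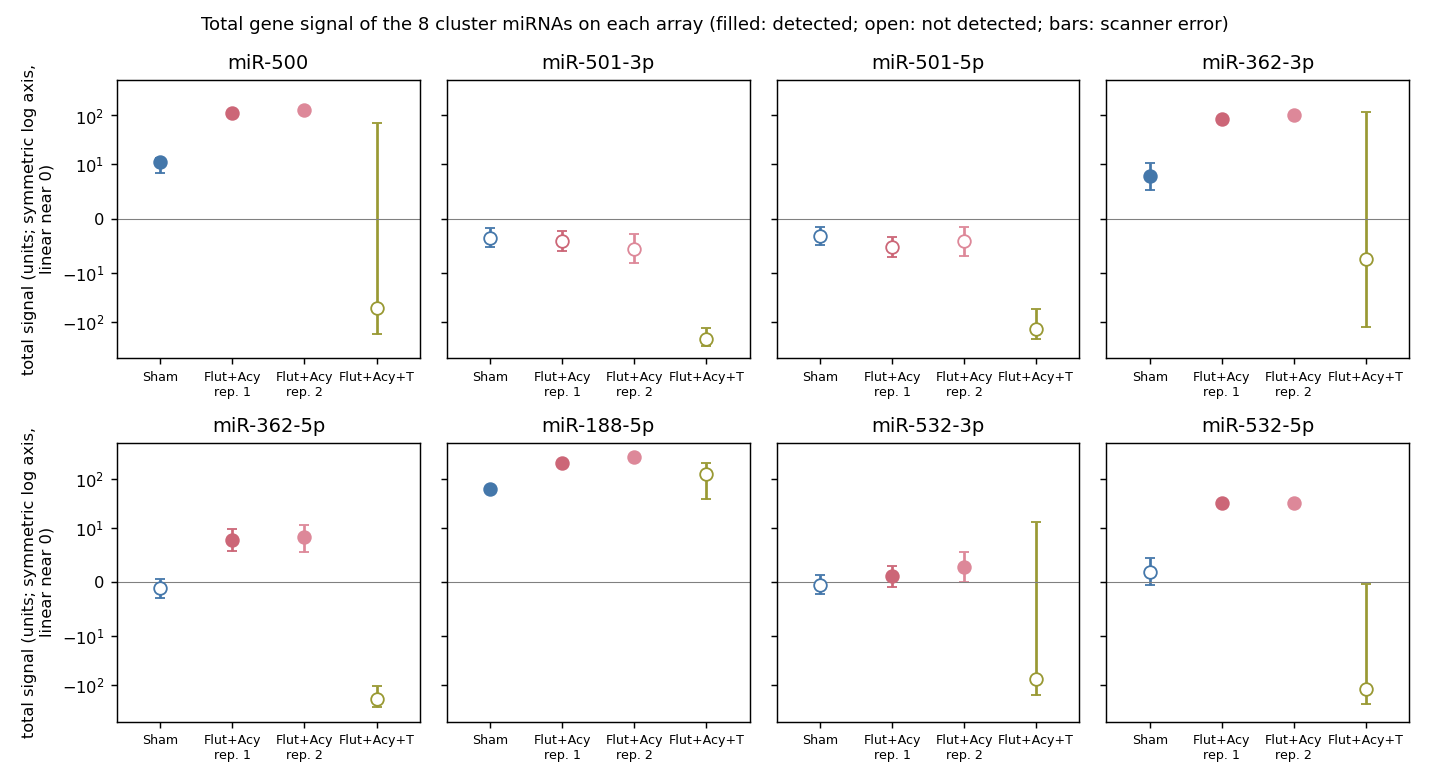
Total signal in scanner units (vertical, symmetric log axis that is linear near 0) of each of the 8 cluster miRNAs on the 4 arrays. Filled points were detected and open points were not, and bars are the scanner's error of the total signal. mmu-miR-500, mmu-miR-362-3p and mmu-miR-532-5p stood above Sham on both Flut+Acy arrays, and every Flut+Acy+T point was open.

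mmu-miR-500 had a total signal of 10.9 ± 2.62 units (scanner error) on Sham, 112 ± 9.35 and 132 ± 11.2 for the Flut+Acy pair and -52.5 ± 123 on the testosterone array, where it was not detected. Both Flut+Acy arrays were thus far above Sham, and the error on the testosterone array was as large as the Flut+Acy level. The array carries 20 spots for each member, and 4 of those for mmu-miR-500 were well above background on Sham against all 20 on each Flut+Acy array. After quantile normalization the difference between Flut+Acy and Sham was 0.75 on the log2 scale (SE 0.065, limma, adjusted p = 0.0430). Quantile normalization gives each array the same distribution of signals and so removes the overall difference in brightness.

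mmu-miR-362-3p followed the same course. It read 7.89 ± 2.55 units on Sham, 84.9 ± 6.94 and 103 ± 8.68 for the Flut+Acy pair, and -7.54 ± 123 on the testosterone array without detection. On Sham, 0 of its 20 spots were well above background although the miRNA as a whole was flagged as detected, and on both Flut+Acy arrays all 20 were. The normalized log2 difference was 0.98 (SE 0.038, limma, adjusted p = 0.0221).

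mmu-miR-188-5p was the member with a clear signal in Sham cells. It read 62.3 ± 3.72 units on Sham, 216 ± 11.1 and 283 ± 14.4 for the Flut+Acy pair, and 126 ± 87.8 on the testosterone array, where it was not detected, and all 20 spots were well above background on Sham and on both Flut+Acy arrays. Before normalization it was therefore 3.47- and 4.54-fold brighter on the Flut+Acy arrays, which as whole arrays were also brighter. Once the arrays were quantile-normalized the difference was -0.23 (SE 0.034), which did not pass (limma, adjusted p = 0.0716). Its direction turned with the scaling: it was 0.64 when arrays were scaled to the 75th percentile of the miRNAs that every array detected (limma, adjusted p = 0.112) and 1.99 with no normalization, where it was called higher (limma, adjusted p = 0.0136). Scaled in these ways, the median of all miRNAs tested moved by 0.50 and 1.82. Relative to that median the difference of mmu-miR-188-5p lay between -0.23 and 0.31 over 14 settings.

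mmu-miR-532-5p was not detected on Sham, with 1.88 ± 2.47 units and 0 of 20 spots well above background. It read 32.3 ± 3.83 and 31.7 ± 4.69 units on the Flut+Acy pair, each with 10 spots well above background, and -124 ± 123 on the testosterone array without detection. The unnormalized rise was 30.4 ± 4.56 units on the first Flut+Acy array and 29.8 ± 5.30 on the other. In normalized signals its Flut+Acy mean was 2.04-fold the dimmest miRNA that Sham detected, and the fitted log2 difference of 1.66 passed (limma, adjusted p = 0.0430). This fold is not a lower bound of the change. Other miRNAs that Sham did not detect had normalized signals of up to 68.0 units there, above the 51.7 and 44.9 units of mmu-miR-532-5p on the Flut+Acy pair.

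The other arms gave weak signals or none. mmu-miR-362-5p read -1.15 ± 1.74 units on Sham without detection and 7.69 ± 1.97 and 8.34 ± 2.85 on Flut+Acy, with 7 and 2 spots well above background. These rises of 8.84 ± 2.63 and 9.49 ± 3.34 units exceeded their errors, but the normalized log2 difference of 0.59 did not pass (limma, adjusted p = 0.636). That value rests on the first Flut+Acy array, since the other lay at the floor after normalization: it was 0 without Flut+Acy replicate 1 and 1.24 without Flut+Acy replicate 2. It passed in 3 other scalings, at 1.02 and 0.28 with the 75th percentile (limma, adjusted p = 0.0169 and 0.0475) and at 2.08 with no normalization (limma, adjusted p = 0.00734). mmu-miR-532-3p read -0.55 ± 1.74, 1.00 ± 1.90 and 2.76 ± 2.79 units on Sham and the Flut+Acy arrays, so its rises of 1.55 ± 2.58 and 3.31 ± 3.29 units were about the size of their errors or smaller. Its normalized signal lay at the floor of 5.46 units on every array, which made its log2 difference 0.

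**Figure D2:**
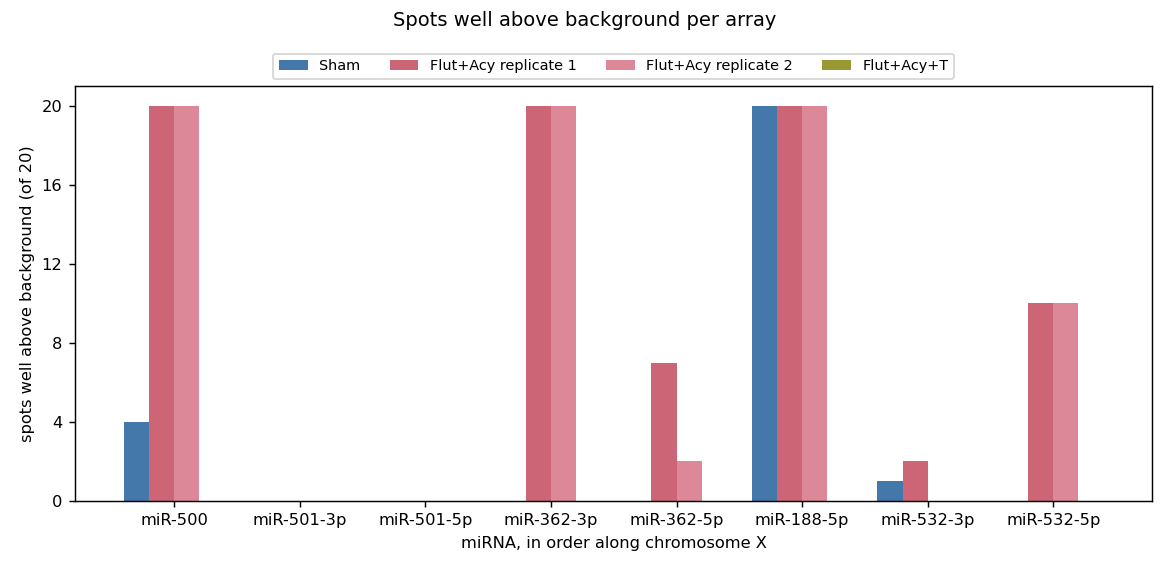
Number of spots well above background, of 20, for each cluster miRNA on each array, in chromosome order. mmu-miR-188-5p had 20 such spots on Sham and on both Flut+Acy arrays, mmu-miR-500 and mmu-miR-362-3p went from 4 and 0 to 20, mmu-miR-532-5p from 0 to 10, and no member had any on Flut+Acy+T.

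Counted together, 6 of the 8 members entered the test of Flut+Acy against Sham, since the test kept miRNAs detected on at least 1 array. Of these, 3 were called higher, at a background of 25.5% of the 298 miRNAs tested, and 0 were called lower, at a background of 28.5% (limma, adjusted p under 0.05). At an unadjusted p under 0.05 in the same limma fit, 1 member, mmu-miR-188-5p, was lower. The median log2 difference of the members tested was 0.67, beside -0.15 for all 298 miRNAs, and it was 0.37 without Flut+Acy replicate 1 and between 0.24 and 2.78 over all settings. When the noisy Flut+Acy+T array was left out of both the normalization and the fit, 3 members again passed, with log2 differences of 1.26 for mmu-miR-362-3p (limma, adjusted p = 0.0189), 1.02 for mmu-miR-500 (limma, adjusted p = 0.0209) and 1.54 for mmu-miR-532-5p (limma, adjusted p = 0.0481). In that fit 80 of 283 miRNAs tested were called higher. The calls depended on the processing. From processed spot signals, after normexp background correction, with no filter on detection, or by contrasts of the model without moderation, 0 members were called higher. Of all miRNAs, these settings called 39 of 298, 0 of 298, 16 of 567 and 18 of 298 higher. The 3 differences stayed above 0 in each. The contrasts without moderation are neither the overall analysis of variance nor the Tukey test that the methods state.

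**Figure D3:**
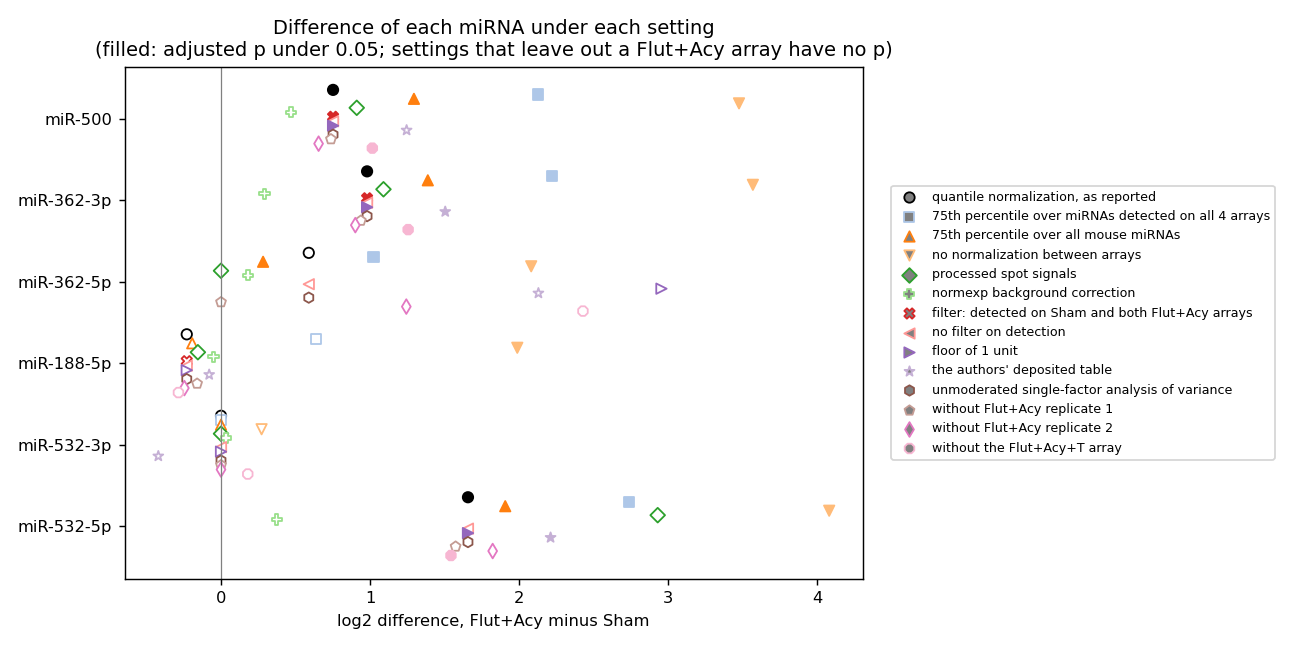
Log2 difference between Flut+Acy and Sham (horizontal) for the 6 members tested, with a marker for each way of processing the signals; filled markers passed an adjusted p of 0.05. mmu-miR-500, mmu-miR-362-3p and mmu-miR-532-5p lay above 0 in every setting that gave a value, mmu-miR-188-5p lay on both sides of 0, and mmu-miR-532-3p lay near 0.

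A comparison of signals before normalization places the members among other miRNAs without any choice of scale, because a common factor per array does not change an order. Among the 189 miRNAs that Sham and the Flut+Acy pair all detected, the increase of mmu-miR-362-3p ranked 25 and 24 from the largest on the Flut+Acy arrays, and that of mmu-miR-500 ranked 28 and 26. mmu-miR-188-5p ranked 68 and 59. On the log2 scale mmu-miR-362-3p was 2.01 and 2.05 above the median increase, mmu-miR-500 was 1.94 above it on both arrays, and mmu-miR-188-5p was 0.37 and 0.53 above it. All of these increases share the same Sham signal.

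**Figure D4:**
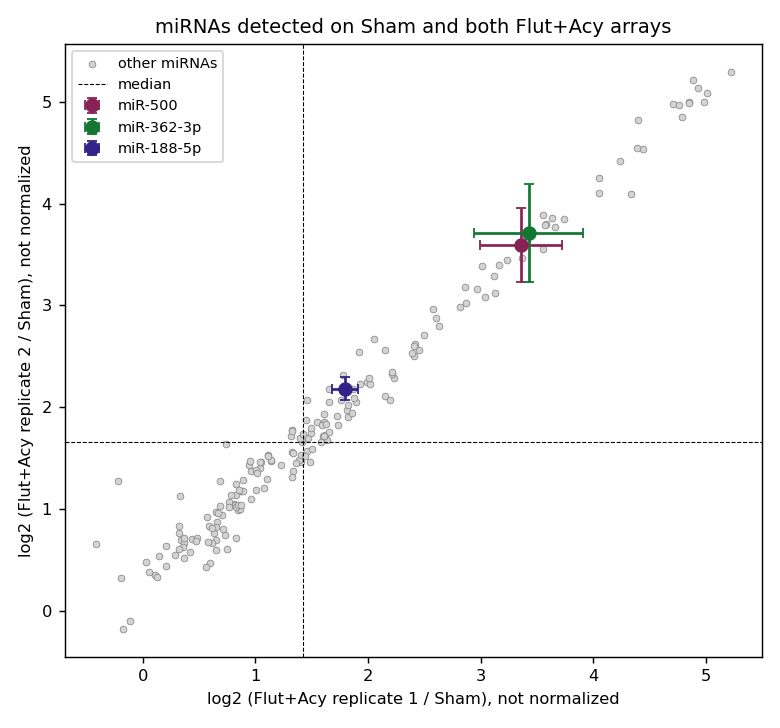
Log2 ratio of the unnormalized signal on Flut+Acy replicate 1 (horizontal) and replicate 2 (vertical) over Sham for the 189 miRNAs detected on these 3 arrays. Bars on the cluster members are scanner errors of the ratio and dashed lines are the medians of 1.42 and 1.66. mmu-miR-362-3p and mmu-miR-500 lay close together at 3.43 and 3.36 on replicate 1, and mmu-miR-188-5p lay at 1.79; both axes share the Sham signal.

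Within arrays, the members' increases differed in size. The log2 increase of mmu-miR-362-3p exceeded that of mmu-miR-188-5p by 1.63 ± 0.49 on the first Flut+Acy array and by 1.53 ± 0.50 on the second (scanner error). The increase of mmu-miR-500 exceeded that of mmu-miR-188-5p by 1.56 ± 0.38 and 1.41 ± 0.38. These differences were over 3 times their errors, but Sham is a single array and gives no replicate check. mmu-miR-362-3p and mmu-miR-500 differed from each other by 0.07 ± 0.60 and 0.12 ± 0.61, well within their errors. mmu-miR-362-3p and mmu-miR-500-3p are identical at 17 of 22 bases. Whether the probes for either also read the other was not tested.

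Probes of the same miRNA can be read singly, but they share the same RNA, the same arrays and the single Sham array. They are not separate evidence for the change. The 2 probes of mmu-miR-500 gave log2 increases between 3.45 and 3.73 before normalization, and the 2 probes of mmu-miR-362-3p between 3.05 and 4.07. For mmu-miR-188-5p the 4 probes gave 1.45 to 2.68, all below every probe of mmu-miR-500 and mmu-miR-362-3p. Of the 4 probes for mmu-miR-532-3p, only 1 had a median spot signal above 0 on all 3 of these arrays, with 2.71 units on Sham and 9.90 and 17.0 on Flut+Acy, an increase of 1.87 and 2.65 on the log2 scale that its total signal did not show. For mmu-miR-362-5p 1 of 4 probes did, rising from 1.68 units to 16.6 and 18.8, and for mmu-miR-532-5p 1 of 2, rising from 3.23 units to 40.6 and 37.9.

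Arms of the same hairpin could be compared for miR-362 and miR-532. In miR-362 both arms were detected on Flut+Acy, and the normalized change of the 5p arm minus that of the 3p arm was -0.39, from 0.22 on the first Flut+Acy array and -1.01 on the second. The 5p arm lay at the floor on Sham and on the second array, so its change of 0 there was set by the floor, whereas its unnormalized rises were alike, and no order of the arms can be read. In miR-532 the difference was 1.76 and 1.55 on the log2 scale. As the 3p arm was at the floor on every array and Sham did not detect the 5p arm, the size of this difference cannot be read, and its mean ran from 0.34 to 3.81 over the settings. For miR-188 only the 5p arm was detected, and mmu-miR-188-3p read between -3.57 and -3.05 units on Sham and Flut+Acy. For miR-501 neither arm was, with signals between -5.53 and -3.21 units on these 3 arrays. mmu-miR-501-3p is the member most like mmu-miR-500-3p in sequence, with 18 of 22 bases identical, and differs by U9C, G18A, C21U and A22G, counted from 1 at the 5′ end with the base of mmu-miR-500-3p first. While mmu-miR-500 was 10.2- and 12.1-fold brighter on the Flut+Acy arrays than on Sham before normalization, the signals of mmu-miR-501-3p were -3.54 units on Sham and -4.16 and -5.53 on Flut+Acy. mmu-miR-362-3p, which rose much as mmu-miR-500 did, shares 17 of 22 bases with mmu-miR-500-3p.

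Adding testosterone back was read on the testosterone array, where the cluster was not detected. The limma fit placed 4 of the 6 members tested lower than in Flut+Acy, at a background of 53.7% of all 298 miRNAs, and 0 higher, at a background of 21.5%. No member was higher at an unadjusted p under 0.05 either. These calls compare a signal with noise, and their p-values take the spread of the quieter Flut+Acy pair for the testosterone array. Scanner errors of the 8 members on Flut+Acy+T were 87.2 to 123 units, and even the lowest was above the total signal of 6 members on the first Flut+Acy array and of 5 on the second. The dimmest miRNA detected on Flut+Acy+T, at 238 units, was brighter than every member on the first Flut+Acy array, and only mmu-miR-188-5p at 283 units exceeded it on the other. Called lower after testosterone were mmu-miR-188-5p (limma, adjusted p = 0.00586), mmu-miR-500 (limma, adjusted p = 0.00584), mmu-miR-362-3p (limma, adjusted p = 0.00401) and mmu-miR-532-5p (limma, adjusted p = 0.0151). The dimmest miRNA detected on the testosterone array had 104 normalized units. The Flut+Acy means of mmu-miR-188-5p, mmu-miR-500 and mmu-miR-362-3p were 2.41-, 1.37- and 1.17-fold that level, and the mean of mmu-miR-532-5p was below it. These folds are not lower bounds of the change. Other miRNAs that the testosterone array did not detect had normalized signals of up to 278 units. That is above every member on the Flut+Acy pair, including the 245 and 253 of mmu-miR-188-5p. With no normalization mmu-miR-188-5p differed by -0.97 on the log2 scale and lost its call (limma, adjusted p = 0.0572), and its 216 units on the first Flut+Acy array lay below the dimmest miRNA that the testosterone array detected. The call of mmu-miR-500 was lost with processed spot signals (limma, adjusted p = 0.0593) and normexp (limma, adjusted p = 0.113), and that of mmu-miR-532-5p with no filter on detection (limma, adjusted p = 0.0690) and without moderation (adjusted p = 0.0636). On the unnormalized scale mmu-miR-500 and mmu-miR-362-3p gave no such fold, since the 238 units of the dimmest detected miRNA exceeded their levels on both Flut+Acy arrays.

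Against Sham, the Flut+Acy+T array gave the same picture. The fit called 4 of 6 members lower, at a background of 48.3%, and 0 higher, at a background of 17.4%, and 0 were higher at an unadjusted p under 0.05 in limma. In normalized signals only mmu-miR-188-5p stood on Sham above the dimmest miRNA detected on Flut+Acy+T, by 2.82-fold, and it was called lower (limma, adjusted p = 0.00736). This fold is not a lower bound, since undetected miRNAs on Flut+Acy+T had up to 278 normalized units, against 292 for mmu-miR-188-5p on Sham. With no normalization mmu-miR-188-5p was 1.01 higher on the log2 scale instead (limma, adjusted p = 0.0662). mmu-miR-532-5p was called lower (limma, adjusted p = 0.0474) although neither array detected it. Whether testosterone returned the cluster to its level in Sham was not detectable at this signal over background.

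Markers of other cells were read in the same fit of Flut+Acy against Sham. There, 25.5% of all 298 miRNAs tested were called higher and 28.5% lower, the background for the counts below. The germ cell markers chosen for comparison, miR-34b, miR-34c and miR-449, are abundant in meiotic and later germ cells. Of these, 7 were on the array, and Sham detected 3, each Flut+Acy array 5 and the testosterone array 3. Under androgen blockade 3 of the 5 tested were called higher, with a median log2 difference of 2.02. The summed signal of the list was 0.824% of all miRNA signal on Sham and 5.15% and 4.62% on Flut+Acy. This share and those below count only signals above 0. None of the listed germ cell arms was called lower. Of the miR-290 to miR-295 arms of pluripotent cells and spermatogonia, 4 of 6 tested were called higher and 1 lower, at 0.0423% of the signal on Sham and 0.125% and 0.144% on Flut+Acy. Muscle and peritubular markers, a list that holds miR-1, miR-133a, miR-143 and miR-145, were called lower in 5 of 5 tested and made up 3.08% of the signal on Sham and 1.85% and 1.92% on Flut+Acy. Blood markers were called lower in 3 of 5 tested, with 0.408% on Sham and 0.273% and 0.268% on Flut+Acy, and endothelial miR-126 in 1 of 2 arms, with 1.12% on Sham and 1.42% and 1.33% on Flut+Acy. miR-202, the marker list for gonadal somatic cells including Sertoli cells, had 1 of 2 arms detected on Sham and both on Flut+Acy, with 1 called higher, at 0.179% of the signal on Sham and 0.239% and 0.227% on Flut+Acy. The 8 cluster miRNAs made up 0.143% of the signal on Sham and 0.325% and 0.347% on Flut+Acy. The part of other cell types in the cluster's change was not tested.

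Other miRNAs on the X chromosome give a setting for these values, of which 81 on the array are placed there. The background is again 25.5% of all 298 miRNAs tested called higher and 28.5% lower. Of the miR-322 group (miR-322, miR-351, miR-450, miR-503 and miR-542), 1 of 5 tested was called higher in Flut+Acy and 1 lower, with a median log2 difference of 0.26. The testis group around miR-463, miR-465, miR-741 and miR-871 had 20 of 24 called higher and a median of 2.27, and the pair miR-201 and miR-547 had 2 of 2 and a median of 1.83. Of all remaining X-linked miRNAs, 2 of 12 tested were called higher and 5 lower, with a median of -0.70. For the cluster, with 3 of 6 and a median of 0.67, the dependence on the processing and on the detection filter given above applies.

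Over all 4 arrays, the miRNAs whose profile was nearest to the mean of mmu-miR-500, mmu-miR-362-3p and mmu-miR-188-5p were sought among the 76 miRNAs detected on every array. Nearness was the Euclidean distance between log2 profiles, each centred on its own mean. The nearest were mmu-miR-20a at a distance of 2.09, mmu-miR-714 at 2.11 and mmu-miR-19b at 2.37 log2 units. mmu-miR-20a and mmu-miR-19b, both on chromosome 14, were higher under androgen blockade than in Sham by 1.32 (limma, adjusted p = 0.0402) and 1.53 (limma, adjusted p = 0.0341), while mmu-miR-714 was 0.18 lower on the log2 scale (limma, adjusted p = 0.0215). The testosterone array detected none of the 3 members, of which 2 lay at the floor, while these miRNAs had to be detected there, so the distances and their order depend on the floor and on that array's noise.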

How the data were processed

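Sertoli cell RNA from 3 groups was hybridized to 4 Agilent miRNA arrays of 1 colour. Groups and replicate numbers came from the sample labels, and the treatments from the study's methods. The authors deposited Agilent Feature Extraction 9.5.3.1 output, with intensities on a linear scale that are background-subtracted and not normalized between arrays, and flags for detection, background and outlier spots. The labels name the dye cy5 whereas the deposited intensity columns are those of the green channel. The authors also deposited a table of quantile-normalized intensities, 1 value per miRNA and array, which was used as an alternative; how its spots were combined is not given in the sources used here. Coordinates are mm9, as in the scanner files.

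Total gene signals of 567 mouse miRNAs were quantile-normalized on the linear scale, raised to at least 5.46 units (for each array the dimmest detected miRNA after normalization, then the median of these) and converted to log2. A linear model of the 3 groups was fitted in limma 3.58.1 (R 4.3.3) to the 298 miRNAs that any array detected, and p-values were adjusted over all 298 by the Benjamini-Hochberg method. The Flut+Acy pair gave 1 residual degree of freedom, and limma's prior SD was 0.010 on the log2 scale, worth 0.46 degrees of freedom. Normalized values tied on both Flut+Acy arrays in 55 miRNAs. Precision is limited by how few arrays there were. If the Flut+Acy arrays held the same RNA, no test would have a biological spread. The fit was also run on simulated data with known changes. Those data had the same spread for every miRNA and array, with no ties and no noisier array. They therefore cannot show how reliable the calls made here are. Scanner errors are the deposited errors of the total signal. Other summaries were made in Python 3.11.15 and figures with matplotlib 3.10.9.

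The 12 alternatives that were planned, and 1 that was added after seeing the data (without the Flut+Acy+T array), are described in the closing section. Where the floor rule gave no positive value, 1 unit was used. The members, the lists of other miRNAs and the alternatives were chosen with earlier results of these data known. The text names all members, the other arms of their hairpins, and the 3 miRNAs nearest in profile. Single probes, mmu-miR-188-3p spots and the sequence comparisons of miR-500 with miR-501 and miR-362 were singled out after values were seen. All arrays shared 1 slide and scan date, so no batch term applied.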

Additional observations from a re-analysis of the deposited data

How the results depend on the processing

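Of the 6 members tested against Sham, mmu-miR-362-3p, mmu-miR-500 and mmu-miR-532-5p were higher in Flut+Acy in every setting that gave a value, by 0.29 to 3.57, 0.47 to 3.47 and 0.37 to 4.08 on the log2 scale. With quantile normalization 3 members were called higher, beside 76 of all 298 miRNAs tested. With either 75th percentile scaling 4 were, beside 111 of 298 (over the miRNAs that all 4 arrays detected) and 84 of 298 (over all miRNAs). No normalization between arrays called 5 members and 218 of 298 miRNAs. The authors' deposited table called 2 members (mmu-miR-500 at limma adjusted p = 0.0585) beside 69 of 298, and the stricter detection filter 2 beside 42 of 189. Processed spot signals, normexp background correction, no filter on detection, and contrasts of the same model without moderation called 0 members. Of all miRNAs they called 39 of 298, 0 of 298, 16 of 567 and 18 of 298 higher. At an unadjusted p under 0.05 in these fits, 2, 2, 1 and 1 members were higher. The cause was not tested. The difference of mmu-miR-188-5p turned to 0.64 with the 75th percentile over the miRNAs that all 4 arrays detected and to 1.99 with no normalization, and for Flut+Acy+T against Sham to 1.01 with no normalization. The arm difference of miR-362 in Flut+Acy against Sham, -0.39 as reported, turned to 1.97 with a floor of 1 unit, 0.62 in the authors' deposited table and 1.17 without the Flut+Acy+T array, and ranged from -0.94 without Flut+Acy replicate 1 to 0.34 without Flut+Acy replicate 2. The arm difference of miR-532 stayed above 0, at 0.34 to 3.81. In Flut+Acy+T against Flut+Acy, calls of mmu-miR-188-5p (no normalization), mmu-miR-500 (processed spot signals, normexp) and mmu-miR-532-5p (no filter, no moderation) were lost. Members called lower in Flut+Acy+T against Sham numbered 4 with quantile normalization, beside 144 of all 298 miRNAs. They numbered 2 with the 75th percentile over the miRNAs that all 4 arrays detected, with no normalization and with processed spot signals. Of all 298 miRNAs, these called 85, 56 and 88 lower. Leaving out a Flut+Acy array left no residual degrees of freedom, so those values have no test. Signal over background limits every value on Flut+Acy+T, and on Sham for the members it did not detect. No paired analysis was possible because the groups compared share fewer than 2 replicate numbers.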
